A study of Mus musculus with 14 samples.

Results

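Translation initiation factors are the proteins that bring a ribosome, an initiator tRNA and a messenger RNA together at a start codon. Their genes were followed here in microglia, the resident macrophages of the brain, after blockade of CD22, an inhibitory receptor that binds sialic acid. The members were all entries of the expression table whose symbol begins with Eif and a digit from 1 to 6, with the kinases of eIF2 left out. There were 51 such genes among 24394 named genes, and 47 of them had a mean of at least 10 normalized counts and were tested. A normalized count is a gene's read count divided by a size factor that evens out the depth of the library.

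The microglia came from C57BL/6 mice aged 18 months. A pump had infused the cerebrospinal fluid for 1 month with a CD22 blocking antibody in 7 samples and with a control IgG in the other 7, and no sample came from an untreated or young mouse. Cells were sorted as living, CD11b-positive and low in CD45, about 20000 per sample, from the hemisphere opposite the cannula. Separate mice are not named in the labels, and each p-value reflects how far these samples spread, which may in part be technical.

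All 8 microglia markers checked were present, with a summed level of 1561886 to 1823019 normalized counts in IgG libraries and 1640796 to 1752963 in anti-CD22 libraries. Markers of neutrophils varied most between libraries, with a sum from 2.23 to 40171 with IgG and from 0 to 7593 with anti-CD22. The 4 monocyte markers summed to between 137 and 9181 with IgG and between 87.2 and 2313 with anti-CD22. Oligodendrocyte markers summed to 1631 to 2185 and 1420.5 to 2066, endothelial markers to 635 to 1216 and 885 to 1235, border macrophage markers to 64.9 to 1164 and 213 to 2002, and T cell, B cell, neuron, astrocyte and erythroid markers to at most 222. Markers at 0 in every library included Cd3e, Ms4a1, Cldn5 and the globin genes Hba-a1, Hba-a2, Hbb-bs and Hbb-bt. Initiation factors are expressed by all of these cell types, and in sorted bulk samples fewer cells of a type and less RNA per cell cannot be told apart. The part of other cells in the values below was not tested. Reads ranged from 20221836 to 38101421 in the 13 libraries where they could be recovered. Libraries differed in how far long transcripts were favoured over short ones. The rank correlation of transcript length with a gene's level, centred on its mean over the libraries, ran from -0.269 to -0.000936 in IgG libraries. It reached 0.329, 0.299 and 0.337 in anti-CD22 replicates 1, 2 and 3, stood at 0.148, 0.138 and -0.0461 in replicates 4, 5 and 6, and was -0.282 in replicate 7.

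As background, initiation begins when eIF2, loaded with GTP and the initiator tRNA, joins the small ribosomal subunit with eIF1, eIF1A, eIF5 and the large scaffold eIF3. The cap of the messenger RNA is bound by eIF4F, made of the cap-binding protein eIF4E, the scaffold eIF4G and the RNA helicase eIF4A, and this step is restrained by eIF4E binding proteins that the kinase mTORC1 switches off. The exchange factor eIF2B recharges eIF2 with GTP, and phosphorylation of eIF2 by stress kinases blocks that exchange in the integrated stress response. Defects of eIF2B cause vanishing white matter disease.

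No initiation factor gene passed an adjusted p of 0.05 after CD22 blockade (limma with Benjamini-Hochberg adjustment over 11646 genes), where 0.00859% of all genes tested did. Their levels differed little between the groups. Of the 47 genes 17 were higher and 30 lower with anti-CD22, against 50.2% of all genes tested higher and 49.8% lower. Their median log2 fold change was -0.03, against 0.00 for all genes tested, and single values ran from -0.24 for Eif4ebp1 to 0.36 for Eif5a2. An unadjusted p under 0.05 was reached by 5 members, which is 10.6% of those tested beside 12.8% of all genes. Of these 5, 1 was higher (Eif3a, beside 6.8% of all genes) and 4 were lower (Eif3d, Eif4a3, Eif2b5 and Eif5a, beside 5.95%). The smallest adjusted p of any member was 0.275. On recovered reads of 13 libraries, edgeR gave 0 members past the adjusted threshold (0% of all genes) and 2 at an unadjusted p under 0.05 (8.82%). DESeq2 on the same reads gave 0 (0.301% of all 11646 genes, 4967 of them without an adjusted p, Eif4ebp2 and Eif5a2 included) and 3 (10%). In 0 members were the groups free of overlap, beside 0.258% of all genes.

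The width of the intervals says how large a difference could have gone unseen. In the fit to the deposited values, the 95% interval lay within a 1.5-fold change in either direction for 46 of the 47 genes. The exception was Eif5a2, and 28 intervals lay within a 1.25-fold change. The median SE of a member's log2 fold change was 0.091, against 0.13 for all genes tested. Over all 14 libraries the median coefficient of variation was 11.8% for the members, from 4.28% for Eif3l to 25.1% for Eif5a2. It was 13.8% for the 7724 genes with a mean no lower than that of the lowest tested member. The limits depend on the fit. The trend of level with transcript length and GC content was also removed in each library. The interval of Eif1ax then reached -0.591 on the log2 scale, beyond 1.5-fold, and that of Eif5a2 stayed inside, at most 0.473. Without anti-CD22 replicates 1 to 3, those of Eif4g3 and Eif5a2 passed 1.5-fold, with upper ends of 0.645 and 0.608.

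**Figure D1:**
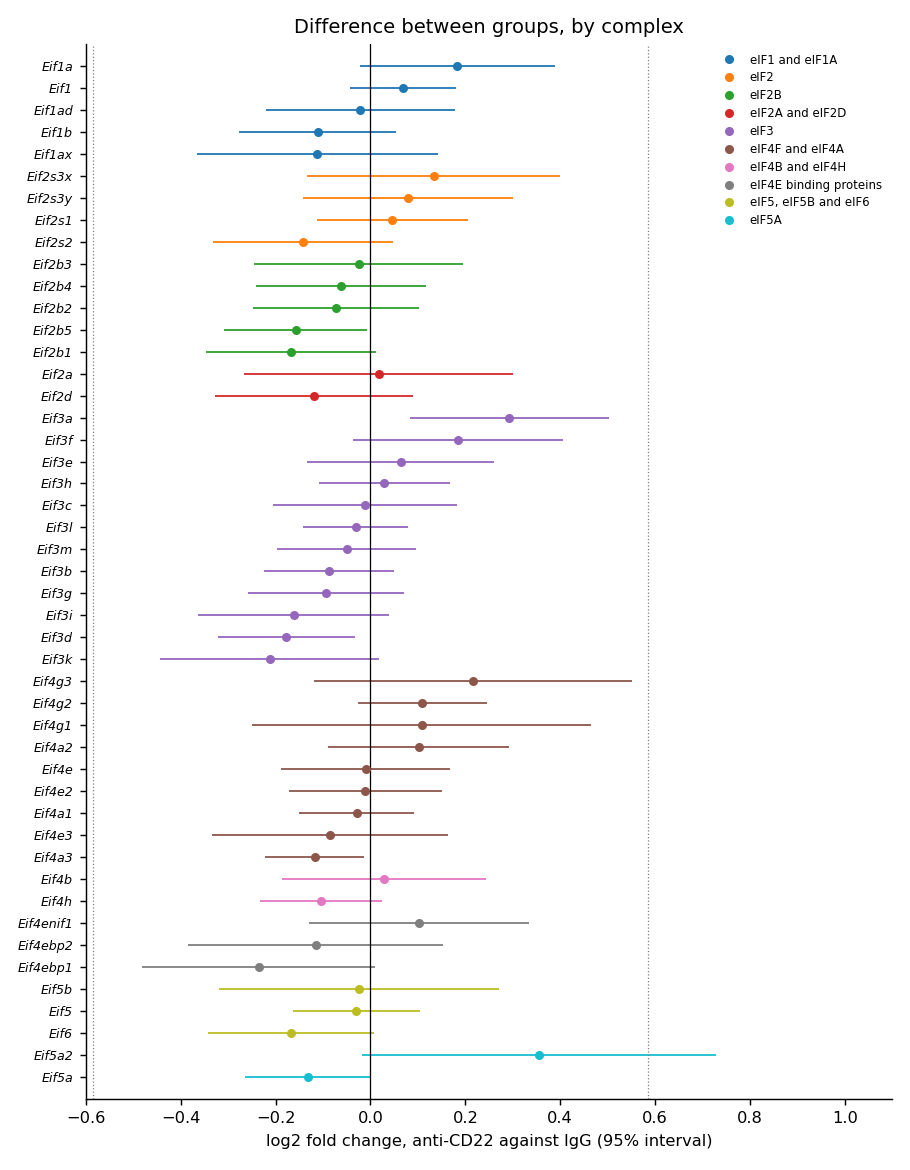
Log2 fold change of anti-CD22 against IgG for the 47 tested initiation factor genes, grouped and coloured by complex. Points are limma estimates from 7 libraries per group, bars are 95% intervals and dotted lines mark a 1.5-fold change. All intervals but that of Eif5a2 stay inside the dotted lines.

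Levels of the factors were compared per kb of the longest protein-coding transcript, so that genes of different length can be set side by side, although microglia may use a shorter transcript. The means ranged over 143-fold among the tested members. Eif5a stood highest, at 6889 ± 631 normalized counts per kb (SD, n = 14), followed by Eif4a1 at 5801 ± 416 and Eif1 at 5392 ± 322. The ranges of Eif5a and Eif4a1 overlapped, as did those of Eif4a1 and Eif1. The next step, Eif4h at 2843 ± 230.4, Eif4a3 at 2804 ± 161 and Eif4g2 at 2579 ± 250.2, overlapped within itself and lay clear of Eif1. At the low end stood Eif4g3 (100.1 ± 23.4), Eif5b (80.6 ± 15.6), Eif5a2 (55.7, from 34.1 to 73.7) and Eif4ebp2 (48.3 ± 6.10). The scaffold eIF3 spread widely for subunits of one complex, from 245 ± 31.2 for Eif3f and 284 ± 46.5 for Eif3a to 2089 ± 205 for Eif3g.

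**Figure D2:**
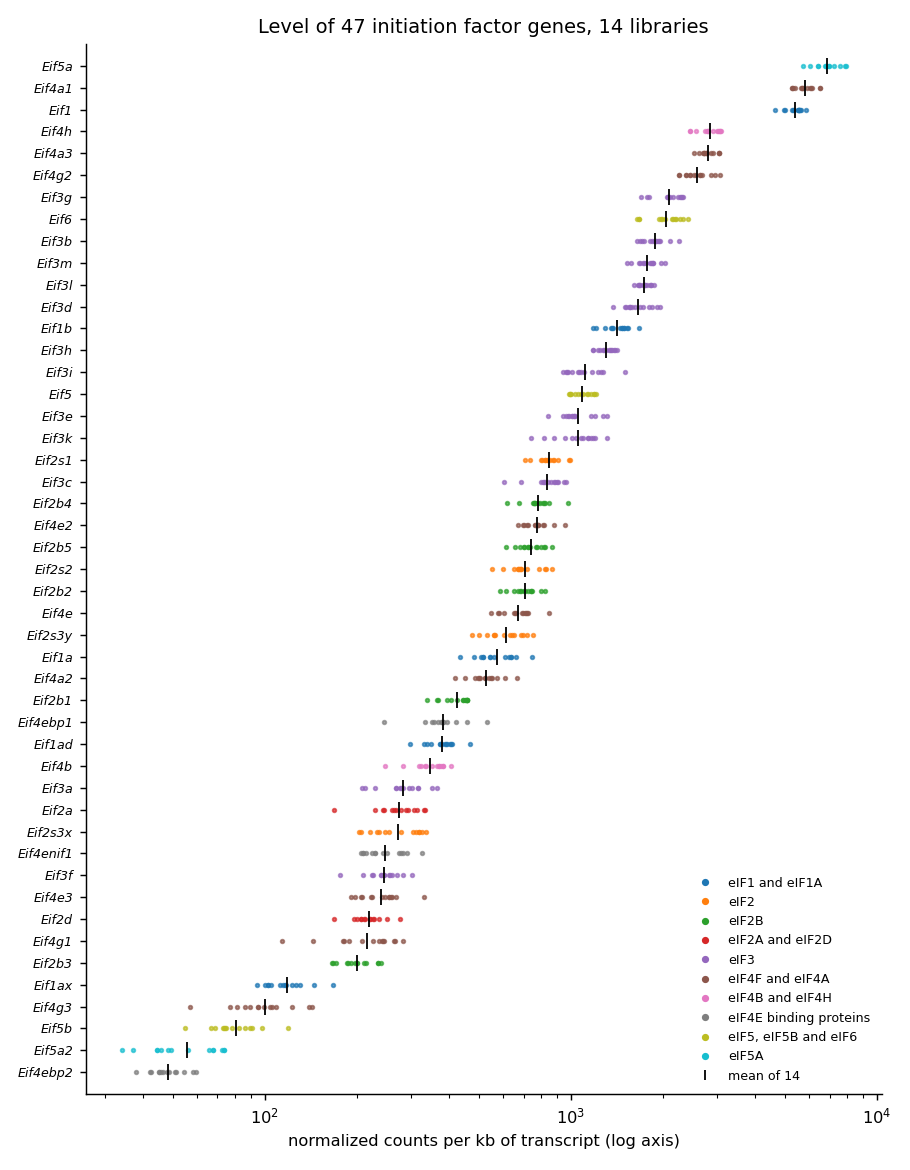
Normalized counts per kb of transcript (log axis) for the 47 tested genes in each of 14 libraries, both groups together, with the mean as a black tick. Eif5a, Eif4a1 and Eif1 lie above all the others, and Eif4ebp2 and Eif5a2 have the lowest means.

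Paralogues differed in which copy was abundant, and in each pair described here except Eif4e and Eif4e2 the higher copy was the same in all 14 libraries. Per kb, the helicase gene Eif4a1 exceeded its paralogue Eif4a2 by 11.7 ± 1.82 times (SD, n = 7) with IgG and 10.6 ± 0.969 times (SD, n = 7) with anti-CD22. In the longest protein-coding transcript of Eif4a1 60.8% of windows of 100 bases, the read length, also occur in transcripts of other genes, most often the pseudogene Eif4a-ps4, so its count may lack or borrow reads. Eif4g2, a relative of the eIF4G scaffold that lacks the part binding eIF4E, exceeded Eif4g1 by 12.5 ± 2.77 times and 12.6 ± 3.48 times. Eif5a exceeded Eif5a2 by 155 ± 41.9 times with IgG and 111 ± 32.3 times with anti-CD22, with ranges of 106 to 223 and 79.3 to 157 that overlapped. The ratio of Eif4ebp1 to Eif4ebp2 was 8.40 ± 2.02 and 7.74 ± 1.68. The cap-binding gene Eif4e and its relative Eif4e2, whose protein binds caps, were near parity, at 0.864 ± 0.0407 and 0.868 ± 0.0994.

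The first group of factors, eIF1 and eIF1A, scans for the start codon with the small subunit. All 5 members were tested, 2 were higher and 3 lower, and 0 had an unadjusted p under 0.05. Eif1, whose protein guards against wrong start codons, ranged from 6155 through a median of 7312 to 7367 normalized counts with IgG and from 6966 through 7277 to 7757 with anti-CD22. The groups overlapped, and the log2 fold change was 0.07 (standard error 0.053, adjusted p = 0.596). Eif1b, its close paralogue, ranged from 1248 through 1518 to 1729.9 and from 1221 through 1415 to 1540.4, with a log2 fold change of -0.11 (adjusted p = 0.562). The per kb ratio of Eif1 to Eif1b was 3.59 ± 0.355 with IgG and 4.07 ± 0.331 with anti-CD22, and the ranges of 3.17 to 4.13 and 3.54 to 4.52 overlapped.

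Eif1a, which codes for the eIF1A protein, ranged from 1244 through 1555 to 1823 with IgG and from 1385 through 1799.8 to 2135 with anti-CD22. Of the anti-CD22 libraries 5 exceeded the IgG median, and the log2 fold change was 0.18 (standard error 0.098, adjusted p = 0.445). It was 0.09 after removal of the trend of level with transcript length and GC content in each library, and 0.06 without anti-CD22 replicates 1 to 3, the libraries with the steepest length trend. Its X-linked paralogue Eif1ax stood at -0.11 (adjusted p = 0.724) and Eif1ad, named for an eIF1A-like domain, at -0.02. By the same 2 alternatives Eif1ax stood at -0.30 and -0.08, Eif1 at 0.14 and 0.09 and Eif1b at -0.00092 and -0.05.

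The carrier of the initiator tRNA, eIF2, has an alpha subunit that stress kinases phosphorylate (Eif2s1), a beta subunit (Eif2s2) and a gamma subunit that binds GTP and the tRNA (Eif2s3x on the X and Eif2s3y on the Y chromosome). Of the 4 genes 3 were higher and 1 lower. Eif2s1 ranged from 2405 through 2798 to 3382 normalized counts with IgG and from 2495 through 2906 to 3353 with anti-CD22, with a log2 fold change of 0.05 (95% interval -0.11 to 0.20, adjusted p = 0.828). Eif2s2 ranged from 1404 through 2002 to 2210.3 and from 1522 through 1720.0 to 1832. All 7 anti-CD22 libraries were below the IgG median, inside the IgG range, and the log2 fold change was -0.14 (standard error 0.091, adjusted p = 0.516).

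Both gamma genes were expressed in all 14 libraries. Eif2s3y ranged from 871 through 1039.5 to 1282 with IgG and from 918 through 1157 to 1376 with anti-CD22 (log2 fold change 0.08, adjusted p = 0.778). Eif2s3x ranged from 741 through 904 to 1229 and from 806 through 1113 to 1193 (log2 fold change 0.13, adjusted p = 0.681). Per kb the X copy stood at 0.435 ± 0.0468 of the Y copy with IgG and 0.457 ± 0.0996 with anti-CD22. Of the windows of Eif2s3x 35.3% recur in other genes, most often the gene model Gm2223, while 0% of those of Eif2s3y do, which limits the comparison of their levels. After removal of the trend 2 eIF2 genes were higher and 2 lower, with Eif2s2 at -0.19, Eif2s1 at -0.06, Eif2s3x at 0.05 and Eif2s3y at 0.02. In the same order they stood at -0.16, -0.03, 0.09 and -0.05 without anti-CD22 replicates 1 to 3.

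In the exchange factor eIF2B every member was lower, 5 of 5, the median was -0.07 on the log2 scale and 0 members passed the threshold. Eif2b5, the catalytic subunit (chromosome 16: 20498817 to 20509323, GRCm38), ranged from 1745 through 2045 to 2210.3 normalized counts with IgG and from 1561 through 1799.7 to 1980.0 with anti-CD22. All 7 anti-CD22 libraries were below the IgG median, yet the ranges overlapped (log2 fold change -0.16, standard error 0.072, unadjusted p = 0.0401, adjusted p = 0.374). Eif2b1, a regulatory subunit, was tightly grouped with IgG, from 815 through 911 to 924, and wider with anti-CD22, from 681 through 794 to 923. Its log2 fold change was -0.17 (standard error 0.085, adjusted p = 0.421), with 6 of 7 anti-CD22 libraries lower than the IgG median. Eif2b2, at -0.07, and Eif2b4, at -0.06, had 4 and 5 anti-CD22 libraries higher than the IgG median, so mean and median did not point the same way. Eif2b3 stood at -0.03. After removal of the length and GC trend 2 genes were higher and 3 lower, with Eif2b1 at -0.13, Eif2b5 at -0.12, Eif2b3 at -0.09 and Eif2b2 and Eif2b4 at 0.03 each. In the same order they stood at -0.11, -0.11, -0.03, -0.0048 and 0.01 without anti-CD22 replicates 1 to 3.

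Eif2a and Eif2d code for single proteins that can deliver tRNA to the ribosome without eIF2, Eif2d also acting in recycling. Eif2a ranged from 528 through 616 to 725 with IgG and from 387 through 674 to 765 with anti-CD22, and Eif2d from 559.7 through 748 to 918 and from 648 through 686 to 753. Their log2 fold changes were 0.02 (adjusted p = 0.972) and -0.12 (adjusted p = 0.631). The low end of Eif2a was anti-CD22 replicate 7. The 2 genes stood at -0.0039 and -0.12 after removal of the length and GC trend, and at -0.17 and -0.15 without anti-CD22 replicates 1 to 3.

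The scaffold eIF3 holds 14 of the 51 members. Of 12 tested subunits 4 were higher and 8 lower, the median was -0.04 on the log2 scale and no subunit passed the threshold. After removal of the length and GC trend 6 were higher and 6 lower, around a median of 0.00073, and the median was -0.03 without anti-CD22 replicates 1 to 3. Eif3a, the largest subunit and the frame of the complex (chromosome 19: 60761117 to 60790658), had the smallest p of all members. It ranged from 1066 through 1377 to 1617 normalized counts with IgG and from 1373 through 1555 to 1874 with anti-CD22. The upper part of the IgG range overlapped the lower part of the anti-CD22 range, and 6 of 7 anti-CD22 libraries exceeded the IgG median. Its log2 fold change was 0.29 (standard error 0.10, 95% interval 0.08 to 0.50, unadjusted p = 0.00891, adjusted p = 0.275). It was 0.16 after removal of the length and GC trend and 0.22 without anti-CD22 replicates 1 to 3.

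Eif3d, a peripheral subunit that can itself bind caps (chromosome 15: 77958998 to 77970813), leaned the other way. It ranged from 2960.0 through 3271 to 3719 with IgG and from 2600.1 through 2934 to 3417 with anti-CD22, with 6 of 7 anti-CD22 libraries lower than the IgG median. The log2 fold change was -0.18 (standard error 0.069, unadjusted p = 0.0185, adjusted p = 0.315), -0.10 after removal of the trend and -0.18 without anti-CD22 replicates 1 to 3. An antisense gene, Gm17638, overlaps exons of Eif3d and holds 5.67% of the 100-base windows of its longest protein-coding transcript. As the SmartSeq v4 libraries carry no strand mark, reads from that stretch cannot be told apart. Eif3k, one of the smallest subunits, ranged from 869 through 1037 to 1190.3 and from 673 through 946 to 1060.4 (log2 fold change -0.21, adjusted p = 0.427). It stood at -0.10 after removal of the trend and -0.02 without anti-CD22 replicates 1 to 3.

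The other subunits were closer together. In the PCI and MPN domain core, to which Eif3a and Eif3k also belong, Eif3f stood at a log2 fold change of 0.18, with 7 of 7 anti-CD22 libraries higher than the IgG median (adjusted p = 0.467). Eif3e stood at 0.06, Eif3h at 0.03, Eif3c at -0.01, Eif3l at -0.03 and Eif3m at -0.05. In the module of Eif3b, Eif3g and Eif3i the values were -0.09, -0.09 and -0.16, with adjusted p of 0.583, 0.633 and 0.486. These 3 stood at -0.04, 0.03 and -0.06, and Eif3f at 0.20, after removal of the trend. Eif3l was the steadiest of all the members, between 3132 and 3617 normalized counts in every library of both groups.

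Eif3j1 and Eif3j2, which code for the loosely attached subunit eIF3j, were listed at 0 in all 14 libraries, although each of the 12 other eIF3 genes averaged between 616 (Eif3f) and 5529 (Eif3b) normalized counts. Of the 100-base windows of Eif3j2 84.0% recur in another gene, most often Eif3j1, and of those of Eif3j1 47.6% recur, most often in Eif3j2. The zeros are given as listed and not read as absence, and the part of the shared sequence in them was not tested.

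The start of a transcript matters for how translation genes are themselves translated. Messenger RNAs of ribosomal proteins, of elongation factors and of some initiation factors, among them Eif3e, Eif3f and Eif3h, begin with a terminal oligopyrimidine tract, a run of C and T bases (U in RNA) through which mTORC1 and its partner LARP1 control them. An unbroken run of at least 8 C or T bases was sought on the sense strand, with its first base within 5 bases of the start annotated in RefSeq. These limits were chosen after the sequences were seen. RefSeq promoter sequences (GRCm38.p6) matched 39 of the 51 members, and 5 of them (12.8%) held such a run. So did 14 of 57 ribosomal protein genes (24.6%) and 5.69% of all 27025 symbols. By these limits most matched ribosomal protein genes held no run, and neither Eif3e nor Eif3h is among the 5 members. A gene without a run is therefore not shown to lack a tract. The start regions of the 5 members are shown from 10 bases before the start to 20 from it onwards, 5′ to 3′ on the gene's own strand, with the run in capitals. They are printed because they show how much the run differs between subunits of eIF3, eIF2 and eIF2B.
Eif3f, chr7:108934405-108934434, plus strand: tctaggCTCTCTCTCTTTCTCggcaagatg
Eif3l, chr15:79075213-79075242, plus strand: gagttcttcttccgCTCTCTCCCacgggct
Eif2s3x, chrX:94212632-94212661, minus strand: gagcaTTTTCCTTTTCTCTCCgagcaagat
Eif2s3y, chrY:1010585-1010614, plus strand: ggccacagccaCTTCCTTCTTTCgtgagca
Eif2b2, chr12:85219471-85219500, plus strand: ccgagcggaagttgaCCTCTCTCggcccgg

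The run was 16 bases long in Eif2s3x, 15 in Eif3f, 12 in Eif2s3y, 9 in Eif3l and 8 in Eif2b2. The 2 gamma subunit genes of eIF2, on the X and the Y chromosome, both held one. These 5 genes had log2 fold changes from -0.07 (Eif2b2) to 0.18 (Eif3f), 3 of them above 0. Ribosomal protein genes, described for comparison, were lower in 70 of 71 tested cases, where 49.8% of all genes were lower. Their median was -0.18 on the log2 scale, and 0 of them passed the threshold. An unadjusted p under 0.05 (limma) was reached by 17, all of them lower, beside 5.95% of all genes lower at that level. After removal of the length and GC trend 59 of the 71 were lower and 12 higher, with a median of -0.09. A match is a feature of the reference sequence, and the start used in microglia was not measured. In the GENCODE annotation Eif2s3x, Eif2s3y and Eif3l begin upstream of the windows shown, at 94212862, 1010543 and 79075179. Eif3f and Eif2b2 begin there inside their windows, at 108934417 and 85219481.

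The cap-binding group eIF4F, with the eIF4A helicases, holds 10 members, of which 9 were tested, 4 higher and 5 lower, and the median was -0.01 on the log2 scale. Eif4e ranged from 3008 through 3309.7 to 3611 normalized counts with IgG and more widely from 2744 through 3521 to 4218 with anti-CD22. The log2 fold change was -0.01 (standard error 0.085, 95% interval -0.19 to 0.17, adjusted p = 0.974). It stood at -0.19 after removal of the trend and -0.15 without anti-CD22 replicates 1 to 3. Eif4g1, the main scaffold, ranged from 813 through 1060.1 to 1492 and from 642 through 1329.9 to 1589.7 (log2 fold change 0.11, standard error 0.17, adjusted p = 0.825). Its interval reached from -0.25 to 0.47, and with 1 library left out the value ran from 0.03 to 0.26. It stood at 0.04 after removal of the trend and -0.03 without anti-CD22 replicates 1 to 3.

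Eif4g2 was the member with the most counts, from 18036 through 19569.6 to 21372 with IgG and from 18093 through 21062 to 24556 with anti-CD22. The log2 fold change was 0.11 (standard error 0.065, adjusted p = 0.487), and it turned to -0.09 after removal of the length and GC trend and -0.01 without anti-CD22 replicates 1 to 3. Eif4g3, the longest of these transcripts, ranged from 462 through 725 to 996 and from 623 through 809 to 1163, a log2 fold change of 0.22 (standard error 0.16, adjusted p = 0.579). Of the anti-CD22 libraries 6 lay above its IgG median. It stood at 0.08 after removal of the trend, 0.27 without anti-CD22 replicates 1 to 3 and 0.11 to 0.29 with 1 library left out.

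Among the helicases, Eif4a1 ranged from 9389 through 10186 to 11564 with IgG and from 9363 through 10058 to 11529 with anti-CD22, nearly the same span (log2 fold change -0.03, standard error 0.058, adjusted p = 0.863). Eif4a3, which sits in the exon junction complex and not in eIF4F (chromosome 11: 119288363 to 119300089), ranged from 4096 through 4404 to 4603 and from 3807 through 4100.4 to 4174. All 7 anti-CD22 libraries were below the IgG median, and the low end of the IgG range overlapped them (log2 fold change -0.12, standard error 0.050, unadjusted p = 0.0298, adjusted p = 0.349). It stood at -0.02 after removal of the length and GC trend, and at -0.11 without anti-CD22 replicates 1 to 3. Eif4a2 stood at 0.10, Eif4e2 at -0.01 and Eif4e3 at -0.08. They stood at 0.02, -0.05 and -0.10 after removal of the trend, and without anti-CD22 replicates 1 to 3 at 0.04, -0.09 and -0.08. Eif4e1b, an oocyte form of eIF4E, was at 0 in every library.

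Eif4b and Eif4h code for RNA-binding proteins that stimulate eIF4A. Eif4h ranged from 7472 through 8188 to 8365 with IgG and from 6658 through 7636 to 8463 with anti-CD22 (log2 fold change -0.10, adjusted p = 0.478). It stood at -0.05 after removal of the trend and 0.00 without anti-CD22 replicates 1 to 3. Eif4b ranged from 1089 through 1300.0 to 1452 and from 950.3 through 1427 to 1569 (log2 fold change 0.03, adjusted p = 0.929). By the same 2 alternatives it stood at -0.02 and -0.08.

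The proteins that hold eIF4E back form the next group, with 4 members, 3 tested, 1 higher and 2 lower. Eif4ebp1, the mTORC1 target 4E-BP1, had the most negative log2 fold change of all members. It ranged from 711 through 760.2 to 1064 normalized counts with IgG and from 490.4 through 749.6 to 787 with anti-CD22. The medians were close, and 3 of 7 anti-CD22 libraries exceeded the IgG median, so the difference in means came from high IgG and low anti-CD22 libraries (log2 fold change -0.24, standard error 0.12, 95% interval -0.48 to 0.01, adjusted p = 0.412). It stood at -0.21 after removal of the trend, -0.10 without anti-CD22 replicates 1 to 3 and -0.27 to -0.15 with 1 library left out.

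Eif4ebp2 ranged from 246 through 281 to 344 and from 219.9 through 265 to 314 (log2 fold change -0.12, adjusted p = 0.730). It stood at -0.21 after removal of the trend and -0.13 without anti-CD22 replicates 1 to 3. Eif4ebp3, which shares exons with a read-through transcript, fell short of the filter, with 0 to 27.9 normalized counts with IgG and 0.915 to 18.9 with anti-CD22. Eif4enif1, whose protein carries eIF4E into the nucleus, ranged from 762 through 847 to 1079 and from 778 through 929 to 1207 (log2 fold change 0.10, adjusted p = 0.720). By the same 2 alternatives it stood at 0.06 and -0.01. The median of the 3 tested genes was -0.12, and -0.21 after removal of the trend.

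Late steps of initiation rest on eIF5, which triggers GTP hydrolysis by eIF2, on eIF5B, which joins the ribosomal subunits, and on eIF6, which keeps free large subunits apart. All 3 genes were lower, with a median of -0.03 on the log2 scale, or -0.16 after removal of the length and GC trend, and 0 passed the threshold in either test. Eif5 ranged from 4014 through 4565 to 4893 normalized counts with IgG and from 4001 through 4356 to 4817 with anti-CD22 (log2 fold change -0.03, adjusted p = 0.871). Eif5b ranged from 428 through 639.6 to 928 and from 518 through 581 to 763 (log2 fold change -0.02, adjusted p = 0.961), and its exons overlap those of Rev1 on the other strand. Eif6 ranged from 2903 through 3199 to 3633 and from 2459.5 through 2973 to 3299, with a log2 fold change of -0.17 (standard error 0.084, adjusted p = 0.414). Eif5 stood at -0.16, Eif5b at -0.21 and Eif6 at -0.04 after removal of the trend. Without anti-CD22 replicates 1 to 3 they stood at -0.10, 0.08 and -0.01.

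The eIF5A genes code for the protein that carries hypusine, a modified lysine, and helps the ribosome through difficult peptide bonds. The abundant and the rare copy had opposite signs. Eif5a (chromosome 11: 69916714 to 69921958) ranged from 9229 through 9992 to 11351 normalized counts with IgG and from 8234 through 9708 to 10417 with anti-CD22 (log2 fold change -0.13, standard error 0.063, unadjusted p = 0.0476, adjusted p = 0.388). Eif5a2 ranged from 171 through 230.2 to 340.0 and from 224 through 339 to 370.4, with 6 of 7 anti-CD22 libraries higher than the IgG median. Its log2 fold change of 0.36 was the highest among the members, with the widest error (standard error 0.18, 95% interval -0.02 to 0.73, adjusted p = 0.413). With the trend removed Eif5a stood at -0.03 and Eif5a2 at 0.15, and without anti-CD22 replicates 1 to 3 at -0.05 and 0.16.

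**Figure D3:**
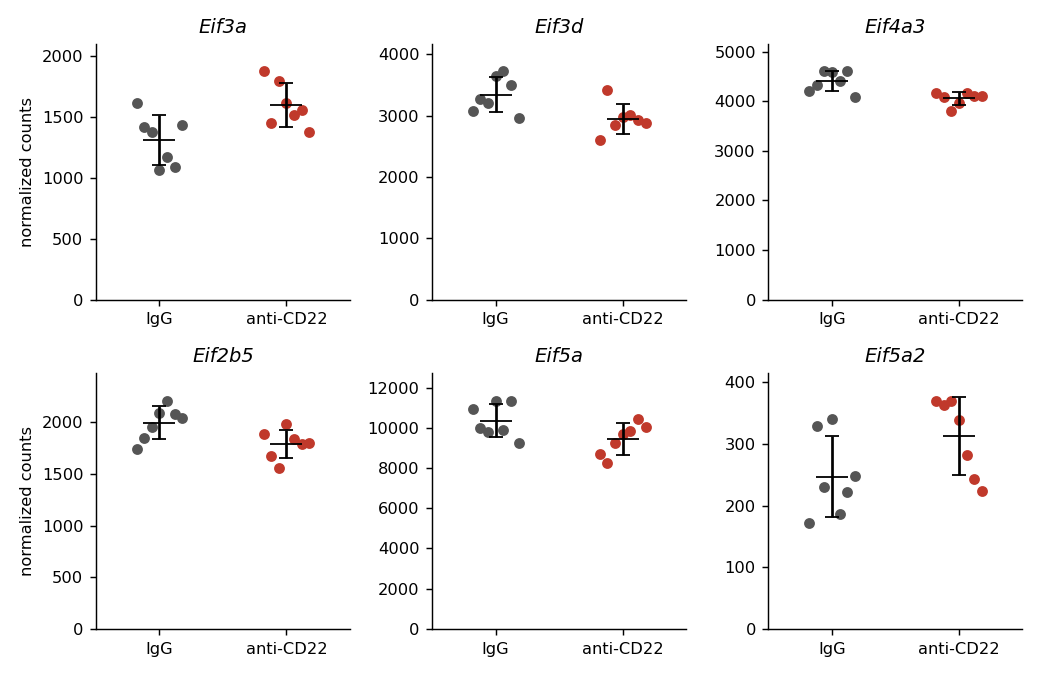
Normalized counts in each library for the 5 members with an unadjusted p under 0.05 (Eif3a, Eif3d, Eif4a3, Eif2b5 and Eif5a) and for Eif5a2, each axis starting at 0. Each point is 1 library and the bars give the mean and SD of 7 libraries, and the groups overlap in all 6 panels.

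Direction among the members went with transcript length and base composition, as it did over all genes. Across the 47 members, which are not independent replicates and share their libraries, the Spearman rho of the log2 fold change was 0.465 with transcript length and -0.499 with GC content. Over all 11224 tested genes with a known transcript the values were 0.379 and -0.331. Of the 16 shortest transcripts, 909 to 1942 bases long, 12 were lower and 4 higher, and the median was -0.08 on the log2 scale. The 15 members of middle length had a median of -0.08 as well. Of the 16 longest, 3405 to 8134 bases, 9 were higher and 7 lower, with a median of 0.04. Eif5a and Eif3k are among the short transcripts, and Eif5a2, Eif3a and Eif4g3 among the long ones.

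After removal of that trend, rho with length across the members was -0.159 and the median log2 fold change was -0.02, with 18 members higher and 29 lower, where 46.7% of all genes were higher and 53.3% lower. The direction changed in 9 of 47 members. Again 0 members passed the threshold, beside 0% of all genes, and 4 members (8.51%) had an unadjusted p under 0.05, beside 8.54% of all genes. None of these 4 was among the 5 found before (0 shared). They were Eif1 (log2 fold change 0.14, adjusted p = 0.356), Eif5 (-0.16, adjusted p = 0.411), Eif4e (-0.19, adjusted p = 0.525) and Eif1ax (-0.30, adjusted p = 0.547). Without anti-CD22 replicates 1 to 3, 0 members passed (0% of all genes) and 1 had an unadjusted p under 0.05, beside 4.99% of all genes. That member was Eif3d, 1 of the 5 found before, at a log2 fold change of -0.18 (unadjusted p = 0.0289, limma). How much of any member's difference comes from the length trend and how much from the antibody cannot be told apart in these libraries.

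**Figure D4:**
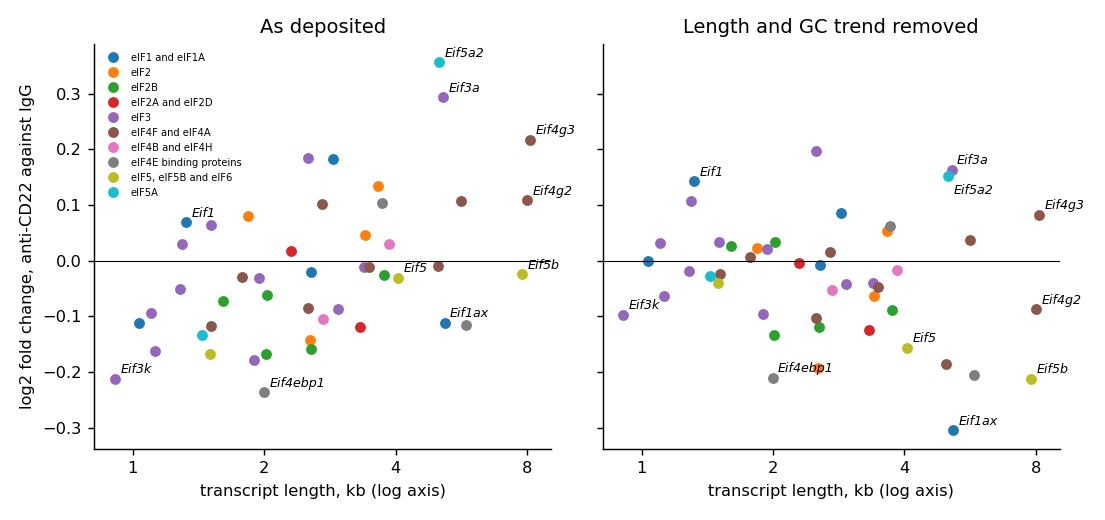
Log2 fold change of each tested member against transcript length (log axis), as deposited on the left and with the trend of level with length and GC content removed in each library on the right, coloured by complex. On the left the long transcripts of Eif5a2, Eif3a and Eif4g3 lie highest and Spearman's rho is 0.465, and on the right rho is -0.159.

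Complexes were also averaged in each library, as the mean over members of the log2 level centred per gene, to see whether one library or one complex stood apart. Over all 47 members the mean stayed between -0.04 and 0.05 in IgG libraries and between -0.04 and 0.01 in anti-CD22 libraries. For eIF3 the spans were -0.05 to 0.10 and -0.10 to 0.08. For eIF2B they were -0.08 to 0.14 and -0.21 to 0.07, with the lowest value in anti-CD22 replicate 2, and for the eIF4E binding proteins -0.11 to 0.15 and -0.14 to 0.04. The farthest single value was that of Eif2a and Eif2d in anti-CD22 replicate 7, at -0.40, and it was -0.41 after removal of the length and GC trend. It averages only 2 genes, which form no complex. In that library Eif2a stood at 387 normalized counts, against a mean of 628 over all libraries, and Eif2d at 663, against 724. In every complex the spans of the groups overlapped.

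**Figure D5:**
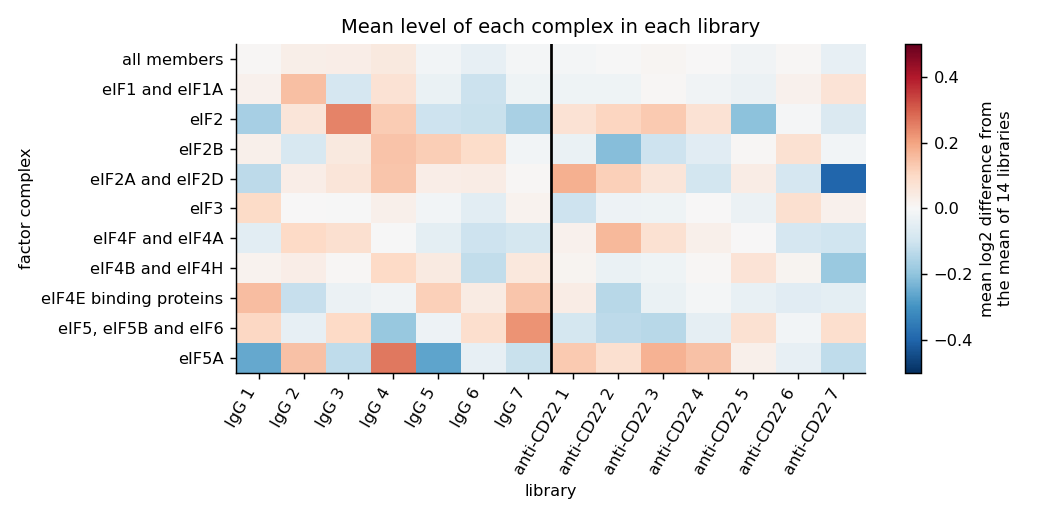
Mean log2 difference from the mean of 14 libraries for each factor complex (rows) in each library (columns), with IgG left and anti-CD22 right of the black line. The row of all members stays between -0.04 and 0.05, and the deepest blue cell is Eif2a and Eif2d in anti-CD22 replicate 7.

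Genes that act on or beside the initiation factors were described from lists grouped by function, and 0 of their members passed the threshold. Among the eIF2 kinases, which sense amino acid shortage, double-stranded RNA, misfolded proteins and haem shortage, 3 of 4 were higher and their median was 0.09 on the log2 scale. Once the length and GC trend was removed 2 were higher and 2 lower, with a median of -0.0019. The largest before that removal was Eif2ak4, which senses amino acid shortage, at 0.28 (adjusted p = 0.566). It stood at 0.19 with the trend removed and 0.27 without anti-CD22 replicates 1 to 3. In the integrated stress response downstream of eIF2, 3 of 9 tested genes were higher and 6 lower (median -0.09), or 4 and 5 after removal of the trend (median -0.0035). Before that removal 4 of the 9 had an unadjusted p under 0.05 (limma), 1 higher and 3 lower, beside 12.8% of all genes. Of these 4 only Atf3 stayed under 0.05 once the trend was removed, beside 8.54% of all genes. For Atf3, a stress-induced transcription factor that is also an immediate early gene, mean normalized counts were 1011 ± 149 in the IgG group and 824 ± 105 in the anti-CD22 group (SD, n = 7 each). The log2 fold change was -0.29, and the adjusted p = 0.296. The phosphatase subunits that reverse eIF2 phosphorylation leaned apart, the inducible Ppp1r15a at -0.23 (adjusted p = 0.323) and the constitutive Ppp1r15b at 0.25 (adjusted p = 0.383). With the trend removed Atf3 stood at -0.24, Ppp1r15a at -0.18 and Ppp1r15b at 0.14.

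In the list of mTORC1, S6 kinase and MNK signalling 8 of 16 genes were higher and 8 lower (median 0.0032), or 5 and 11 after removal of the trend (median -0.04). The kinase gene Mtor had mean normalized counts of 218 ± 62.5 in the IgG group and 320.3 ± 105 in the anti-CD22 group (SD, n = 7 each), with 7 of 7 anti-CD22 libraries higher than the IgG median (log2 fold change 0.54, standard error 0.21, adjusted p = 0.324). Akt1s1, which codes for the mTORC1 inhibitor PRAS40, stood at -0.32 (adjusted p = 0.315). With the trend removed they stood at 0.42 and -0.18.

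Other initiation and recycling factors had 8 of 11 genes higher and a median of 0.05, but 5 higher and 6 lower after removal of the trend, with a median of -0.01. The helicase gene Ddx3x stood at 0.22 (adjusted p = 0.349), or 0.06 with the trend removed and 0.09 without anti-CD22 replicates 1 to 3. Elongation and termination factors had 3 of 11 tested genes higher and a median of -0.06. After removal of the trend 5 were higher and the median was -0.04. Before that removal the largest difference was in the exchange factor subunit gene Eef1d, at -0.19 (adjusted p = 0.314). Eef1d stood at -0.14 with the trend removed and at -0.09 without anti-CD22 replicates 1 to 3. Mitochondrial initiation and elongation factors were evenly split, 3 higher and 3 lower, also after removal of the trend.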

How the data were processed

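RNA sequencing libraries of microglia from 7 IgG and 7 anti-CD22 samples were compared, grouped by sample title. cDNA was made with SmartSeq v4 and read as pairs of 100 bp. The submitters' processing notes name bcl2fastq, STAR, DESeq2 and the build mm10, and per the labels' design text SummarizedExperiment made the counts. Versions and annotation: not given in the sources used here. Deposited by the authors were normalized counts, a signal in which each library's counts are divided by 1 size factor. Of 24421 entries 27 with names turned into dates were left out, and 0 columns were without a sample.

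Testing was by limma on log2(normalized count + 1) with a mean-variance trend, two-sided, for 11646 genes with a mean of at least 10, Benjamini-Hochberg adjusted over all of them, at a threshold of 0.05. Fold changes are on that log2 scale. In every library 100% of values were whole multiples of 1 step within 0.1 reads, so whole reads were recovered for 13 libraries. Anti-CD22 replicate 3 has a step of 1.00925, too near 1 to tell, and does not enter the tests on reads. There edgeR (quasi-likelihood) called 0 genes and DESeq2 35. The reads carry no molecular identifiers and so do not count molecules. Transcript length, GC content, overlaps and gene coordinates came from GENCODE vM21 (GRCm38, the assembly of mm10), and the start regions from RefSeq. Natural splines took the length and GC trend out of each library. Removing the 3 steepest libraries was added after seeing the data.

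The members and lists were chosen with earlier results of these data known. The members given in full are the 3 with the smallest p in each complex and Eif4e, Eif4g1, Eif4a1, Eif4ebp1, Eif2s1, Eif2b5, Eif3a, Eif5 and Eif6, and up to 3 genes per list. Others are named by value. The fit was tested on simulated data without a length or GC trend, so that test does not cover the trend in these libraries. Tools were R 4.3.3, limma 3.58.1, edgeR 4.0.16, DESeq2 1.42.0, Python 3.11.15, pandas 2.3.3 and matplotlib 3.10.9.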

Additional observations from a re-analysis of the deposited data

Results flagged for a closer look

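Of 62 groups of 7 libraries checked for the 31 members given in full, 2 held 1 library far from the others, and chance flags about 1 in 20 groups. For Eif2b1, IgG replicate 7 stood at 815 normalized counts, while the other IgG libraries lay between 896 and 924. For Eif4ebp1, anti-CD22 replicate 2 stood at 490.4 normalized counts, with the next lowest library of its group at 666 and the highest at 787.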

How the results depend on the processing

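No initiation factor passed the threshold under any alternative run (0 members throughout), and the lowest adjusted p of a member was 0.124 with sample weights. With 1 library left out, members at an unadjusted p under 0.05 numbered from 2 to 11 and the median log2 fold change stayed from -0.04 to -0.02. The count of all genes called, 1 in limma's test as reported, was 0 without a mean-variance trend, 0 with the length and GC trend removed, 0 by edgeR, 0 without the 3 steepest libraries, 8 with sample weights and 35 by DESeq2. With 1 library left out it ran from 0 to 43, and 43 was without anti-CD22 replicate 7. The cause was not tested. With the replicate number as a block it was 2 genes and 0 members, and 8 members had an unadjusted p under 0.05. Deviations of same-numbered libraries correlated at -0.145 to 0.16, and 2 of 7 correlated best with their own number. Such weak correlations do not settle whether the numbers pair the samples.

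Of 899 checks of the 31 members given in full, 866 kept direction and side of the threshold and 33 changed sign, none past the threshold. After removal of the length and GC trend the log2 fold change was -0.0039 for Eif2a, 0.026 for Eif2b2, -0.063 for Eif2s1, 0.0062 for Eif4a1, -0.017 for Eif4b and -0.087 for Eif4g2. Without the 3 steepest libraries it was -0.17 for Eif2a, -0.033 for Eif2s1, -0.047 for Eif2s3y, -0.085 for Eif4b, -0.0085 for Eif4enif1, -0.026 for Eif4g1, -0.0068 for Eif4g2, 5.8e-05 for Eif4h and 0.076 for Eif5b. It was 0.0021 for Eif4e at the same total and -0.0031 for Eif2a with quantile normalization. With 1 library left out it ran from -0.032 to 0.13 for Eif2a, -0.015 to 0.11 for Eif4b, -0.068 to 0.035 for Eif4e and -0.11 to 0.071 for Eif5b.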
